A study of Mus musculus with 2 samples.

Results

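The 8 chemokine ligand genes Ccl1, Ccl3, Ccl4, Ccl5, Ccl20, Ccl25, Xcl1 and Cxcl10 were followed in sorted Vγ6 γδ T cells from the newborn thymus. They were found by gene symbol among 65956 rows of the array, each in 1 row of its own, and no row naming several symbols held one of them, so that 8 of 30142 genes with a symbol are described. Vγ6 γδ T cells are T cells of the fetal and perinatal thymus that carry a receptor with the Vγ6 chain. One sample of cells came from C57BL/6 mice aged 0 days without MHC class II, the molecules that show peptides to CD4 T cells (MHC class II KO), and the other came from wild type (WT) C57BL/6 mice of the same age. There was 1 array for each genotype, so "in MHC class II KO cells" and "in WT cells" each stand for 1 array, and each difference carries no error or test. The disrupted class II gene and any pooling of animals are not named in the labels.

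Chemokines are small secreted proteins that draw cells towards their source by binding G protein-coupled receptors. Activated T cells can secrete CCL3, CCL4, CCL5 and XCL1, which act on receptors of myeloid cells, T cells and cross-presenting dendritic cells. CCL1 binds CCR8, CCL20 binds CCR6, the receptor typical of cells that make interleukin 17, and CXCL10 is induced by interferon in many cell types and binds CXCR3. CCL25, the ligand of CCR9, is known in the thymus mainly as a product of epithelial cells, so its place among ligands made by T cells is one of name more than of known source.

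The bases just before the transcription starts are shown for the members whose signals differed most, Ccl3 and Xcl1, and for Ccl20 and Cxcl10, whose windows held κB matches, because genes of the pathways that act through NFAT and NF-κB sites were compared on the same arrays. Each window is the 150 bases before the RefSeq start on build GRCm38.p6, read 5′ to 3′ on the gene's strand, at chr11:83649379-83649528, minus strand, for Ccl3, chr1:164935523-164935672, minus strand, for Xcl1, chr1:83116616-83116765, plus strand, for Ccl20, and chr5:92348890-92349039, minus strand, for Cxcl10. Capitals mark matches on either strand to GGAAA, the core of sites for the calcium-activated factor NFAT, or to the κB consensus bound by NF-κB.
Ccl3: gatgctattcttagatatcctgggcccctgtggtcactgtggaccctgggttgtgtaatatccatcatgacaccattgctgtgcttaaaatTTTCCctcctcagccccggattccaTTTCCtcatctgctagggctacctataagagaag
Xcl1: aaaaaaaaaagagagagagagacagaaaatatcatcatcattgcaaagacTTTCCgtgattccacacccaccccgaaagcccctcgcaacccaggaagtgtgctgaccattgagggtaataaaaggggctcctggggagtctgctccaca
Ccl20: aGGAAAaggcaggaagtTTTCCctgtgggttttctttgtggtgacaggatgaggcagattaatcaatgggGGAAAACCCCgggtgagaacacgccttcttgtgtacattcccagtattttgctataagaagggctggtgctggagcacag
Cxcl10: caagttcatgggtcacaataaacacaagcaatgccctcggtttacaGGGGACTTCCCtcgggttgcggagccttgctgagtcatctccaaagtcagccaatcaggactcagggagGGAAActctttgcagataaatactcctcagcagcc
RefSeq windows were matched for 6 of the 8 members, Ccl25 having one for each of 2 starts. Ccl3 held GGAAA beginning 59 and 34 bases before the start, and Xcl1 held it once, 100 bases before the start, all on the opposite strand. GGAAA occurred in 5 of the 6 members and in 37.6% of 32851 windows of the same length. The κB consensus occurred in Ccl20 at 80 bases before the start, where it overlaps a GGAAA, and in Cxcl10 as 2 overlapping matches at 104 and 103 bases, against 4.60% of all windows. The interferon-stimulated response element, searched on both strands as GAAA, any 2 bases and GAAA, was in 0 of the 6 and in 1.59% of all windows. Bases farther than 150 before the start were not searched, so an element lying there would be missed. TATAAA was found only in the window of the second start of Ccl25, and 7.57% of all windows held it. These matches describe letters and not bound sites.

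The ligands split evenly into those above and those below background. Background was set from 1228 rows of olfactory receptors, a family of smell receptors not known in T cells, at the 95th percentile of their signals, with a log2 value of 5.86 in MHC class II KO cells and 5.94 in WT cells. Ccl5, Ccl25 and Xcl1 were above it on both arrays, Ccl3 in WT cells alone, and Ccl1, Ccl4, Ccl20 and Cxcl10 on neither. Thus 4 of the 8 were above background on at least 1 array, a share close to the 48.1% of all genes with a symbol. The ligands are not ranked by signal, because each row has its own probes.

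**Figure D1:**
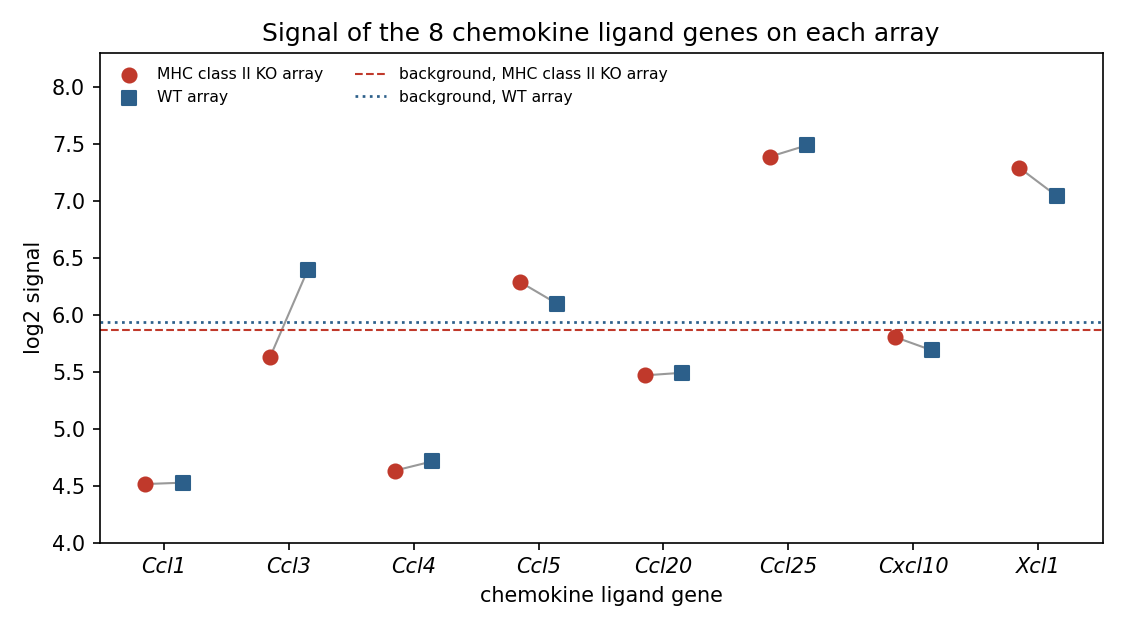
Log2 signal of each chemokine ligand gene in MHC class II KO cells (circles) and the WT array (squares), with each array's background as a line; there is 1 array per genotype. Ccl3 crosses the lines, with 5.63 in MHC class II KO cells and 6.39 in WT cells, while the other 7 genes stay on the same side on both arrays.

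Ccl5, Ccl25 and Xcl1, the ligands measured above background on both arrays, were each within 1.5-fold, a log2 difference of 0.58. For Ccl3 there is only a bound, which does not show on which side of 1.5-fold it lies. With signals under background raised to it, so that such a gene has only a bound, 0 of the 4 were at least 1.5-fold higher in MHC class II KO cells, where 3.74% of 14494 genes above background were. At least 1.5-fold lower were also 0 of the 4, against 2.66% of those genes. With signals taken as measured, 1 of the 4, Ccl3, was past 1.5-fold lower, as were 459 of the 14494 genes. At 2-fold the shares of all genes were 0.738% higher and 0.807% lower. Over all 8 members, including those below background, the median measured difference was -0.02, and over all 30142 genes it was -0.03.

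Ccl3, which encodes macrophage inflammatory protein 1α, had the largest difference. Its log2 signal was 5.63 in MHC class II KO cells and 6.39 in WT cells. It was not above background in the MHC class II KO cells, and its fold is a bound, at least 1.44-fold lower there. The measured log2 difference was -0.76 and the bounded one -0.53. On the MHC class II KO array 8.47% of the olfactory receptor rows were as bright as Ccl3 or brighter, and on the WT array 2.28% were.

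Of 2308 genes whose mean log2 signal lay within 0.5 of that of Ccl3, 6.93% had a bounded difference at least as large in size. The 3 genes whose pair of log2 signals lay nearest to that of Ccl3 over the 2 arrays were Olfr823, Rpl36-ps7 and Gm25074, at distances of 0.035, 0.042 and 0.051 log2 units. Being chosen for both signals, they share its difference by construction. The first of them is an olfactory receptor gene. Olfr823 had log2 signals of 5.66 in MHC class II KO cells and 6.38 in WT cells.

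Ccl4, the gene for macrophage inflammatory protein 1β, lies beside Ccl3 on chromosome 11 and is often induced with it. Its log2 signal was 4.63 in MHC class II KO cells and 4.71 in WT cells, more than 1 log2 unit under background on both, so no fold is given. In the RefSeq table of GRCm38.p6 the spans of Ccl3 and Ccl4 overlap. Ccl5, Ccl25 and Cxcl10 also overlap other genes there, Gm32650, LOC108167518 and Art3 in that order. Where the probes of these rows lie was not known, nor was the genome build behind the array rows. At this background a change of Ccl4 was not detectable.

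Ccl5, which encodes the chemokine RANTES made by memory and cytotoxic T cells, had a log2 signal of 6.29 in MHC class II KO cells and 6.10 in WT cells. The difference was 0.19, or 1.14-fold higher in the MHC class II KO cells, and the WT signal stood only 0.16 above background. Among 2785 genes of like signal, 40.5% were at least as far apart. Ccl5 was near background on both arrays.

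Xcl1 encodes lymphotactin, the chemokine by which activated T and NK cells call cross-presenting dendritic cells that bear XCR1. Its log2 signal was 7.29 in MHC class II KO cells and 7.04 in WT cells, 1.43 and 1.10 above the background of each. The difference of 0.25, or 1.19-fold higher, was the highest of the 8 members, and 38.6% of 2497 genes of like signal were at least as far apart. By bounded difference it ranked at 2898 from the highest among the 14494 genes.

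Ccl25 had a log2 signal of 7.39 in MHC class II KO cells and 7.49 in WT cells, which is 1.53 and 1.55 above background. The difference was -0.10, or 1.07-fold lower in the MHC class II KO cells, and 70.7% of 2434 genes of like signal were at least as far apart. Among 10 listed markers of thymic epithelium, the defining genes Foxn1, Psmb11, Prss16, Aire, Krt5 and Krt14 were not above background on either array. Their summed signal over all 10 genes was 448 in MHC class II KO cells and 522 in WT cells. Krt8 and Epcam were above background in WT cells alone, and the list's other members above background were Ctsl and Ly75. The part of such cells in the Ccl25 signal was not tested. In a sorted bulk sample, fewer cells of a type and less RNA per cell cannot be told apart.

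Ccl1, Ccl20 and Cxcl10 were dim on both arrays. Ccl1, whose product is secreted by activated T cells, had log2 signals of 4.51 in MHC class II KO cells and 4.53 in WT cells, and 55.5% and 55.4% of the olfactory receptor rows were as bright or brighter. Ccl20 had 5.47 in MHC class II KO cells and 5.49 in WT cells. Cxcl10 had 5.81 in MHC class II KO cells and 5.69 in WT cells, and came within 0.06 of the background on the first of these. No fold is given for these 3 genes, and differences between the genotypes were not detectable at this signal.

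**Figure D2:**
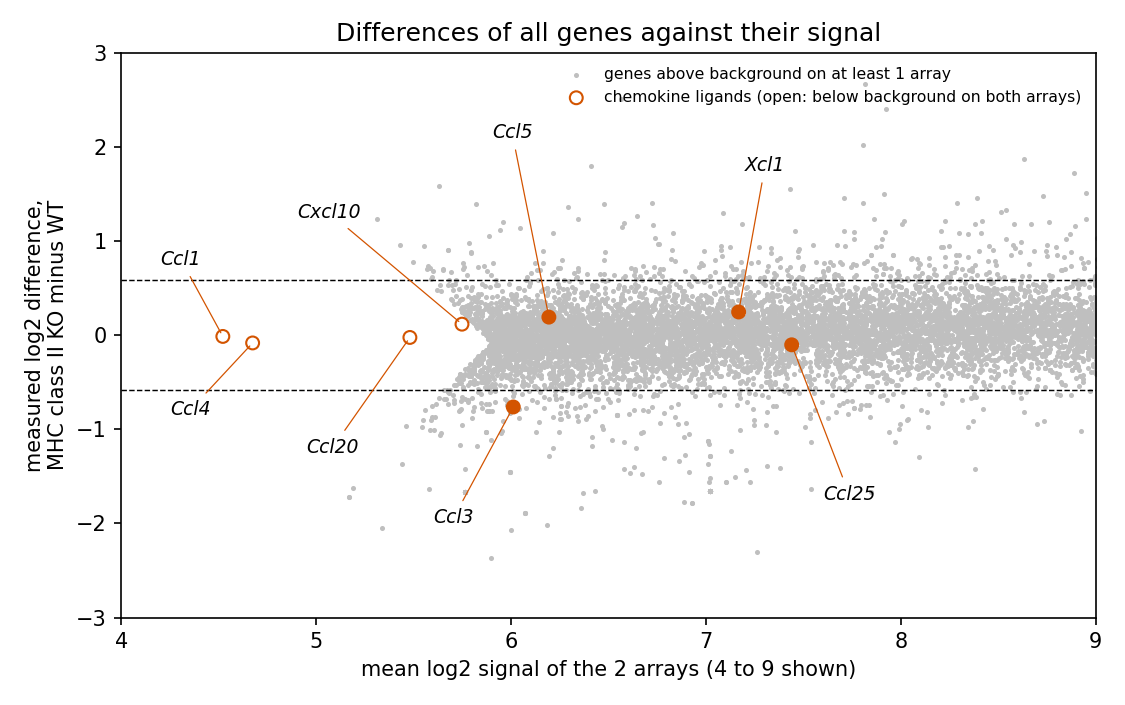
Measured log2 difference (MHC class II KO minus WT) against the mean log2 signal, with grey points for genes above background on at least 1 array and orange ones for the 8 chemokine ligands, open where both arrays were below background; dashed lines mark 1.5-fold. The plot shows 8211 genes and leaves out 6283 that are brighter or farther apart. Ccl3 lies at -0.76 below the lower line as measured, and the other 7 ligands lie between the lines.

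Of 27 other Ccl, Cxcl and Cx3cl genes with a row of their own, 7 were above background on at least 1 array and 20 were not, where 48.1% of all genes were. Among the 7, the 6 measured on both arrays were each within 1.5-fold. Ccl11, the gene for eotaxin, came nearest, with log2 signals of 6.11 in MHC class II KO cells and 6.68 in WT cells, a difference of -0.57. Ccl17, which encodes a CCR4 ligand, had 7.09 in MHC class II KO cells and 7.53 in WT cells, a difference of -0.43. The differences were -0.29 for Ccl6, -0.23 for Cxcl17, 0.13 for Cxcl3 and 0.15 for Ccl27a. Cxcl16, whose membrane-bound product binds CXCR6, was above background in MHC class II KO cells alone by a margin too small for any fold. The median measured difference of all 27 was -0.04.

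Of the receptors for the 8 ligands, Ccr6 and Ccr9 lay farther apart between the arrays than any of the ligands. Of 8 receptor genes analysed, 4 were above background on at least 1 array. Ccr6, which binds CCL20, had log2 signals of 9.12 in MHC class II KO cells and 7.66 in WT cells and was 2.74-fold higher. Ccr9, which binds CCL25 and guides precursors within the thymus, went the other way, with 7.44 in MHC class II KO cells and 8.74 in WT cells, and was 2.45-fold lower. Of genes with like signal, 0.270% were at least as far apart as Ccr6 and 0.590% as Ccr9. Cxcr3, which binds CXCL10, had 6.59 in MHC class II KO cells and 6.43 in WT cells, a difference of 0.16. Ccr8, which binds CCL1, was above background in WT cells alone, and its fold is bounded at 1.24-fold lower or more. Ccr1, Ccr3, Xcr1 and the scavenging receptor gene Ackr4 were not above background on either array, while Ackr2 was not analysed here.

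For Ccl20 and Ccr6 the pair therefore consisted of a ligand gene below background on both arrays and a receptor gene above it on both. For Ccl25 and Ccr9 both genes were above background on both arrays, with differences of -0.10 for the ligand and -1.29 for the receptor. Xcl1 was above background on both arrays and its receptor gene Xcr1 on neither.

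**Figure D3:**
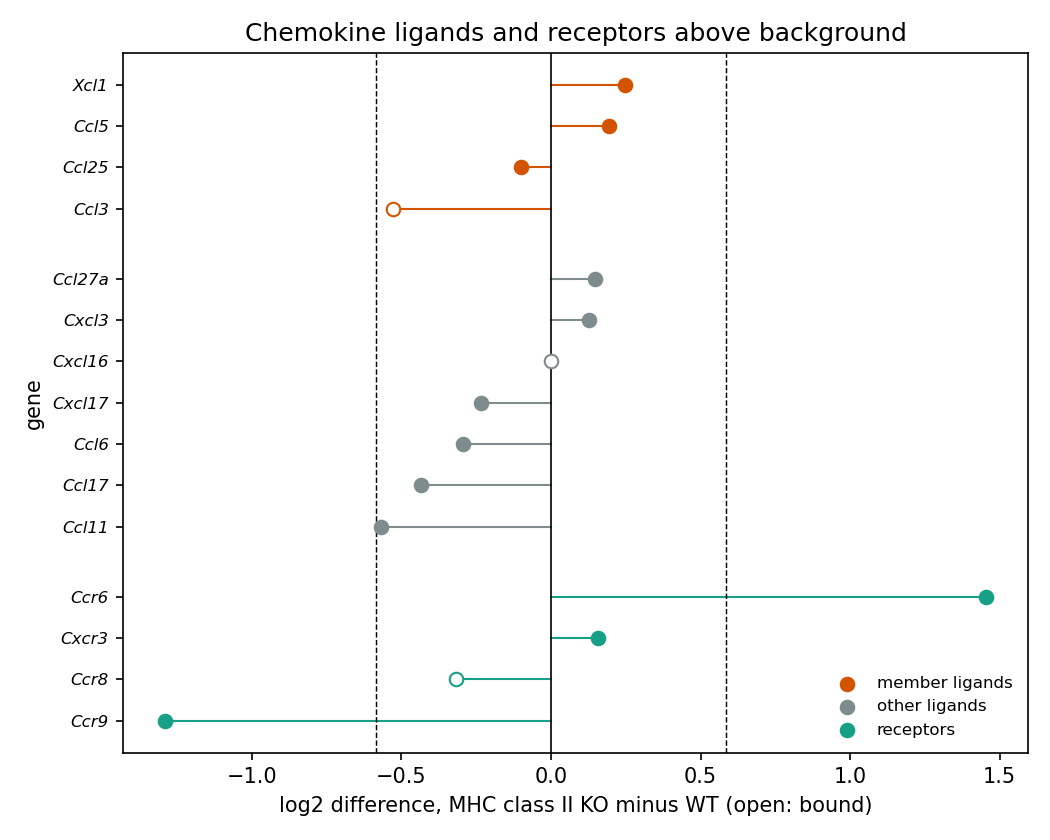
Log2 difference (MHC class II KO minus WT) of member ligands, other ligands and receptors above background on at least 1 array; filled points are measured on both arrays, open points are bounds, and dashed lines mark 1.5-fold. The 11 ligands, 2 of them bounds, lie between -0.57 and 0.25, inside the lines, while Ccr6 at 1.46 and Ccr9 at -1.29 lie outside.

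Genes of pathways that induce these chemokines were compared as lists drawn from general knowledge, but chosen with earlier results of these data known. T cell receptor and NF-κB signalling drive Ccl3, Ccl4 and Xcl1 in activated T cells. The list for it holds genes induced by the signalling and inhibitors of it beside transcription factor genes, so it is not a list of drivers. Of its 11 genes, 10 were above background, 4 were at least 1.5-fold lower in MHC class II KO cells and 1 was at least 1.5-fold higher. The nuclear receptor genes Nr4a2 and Nr4a1, switched on by receptor signalling, differed by -1.32 and -0.86, and the NF-κB inhibitor genes Tnfaip3 and Nfkbia by -0.77 and -0.59. Irf4, a transcription factor gene, differed by 0.66. The list's other genes above background were Rel (-0.53), Nr4a3 (-0.19), Egr2 (0.02), Nfatc1 (0.27) and Egr1 (at least 0.004). The median bounded difference of the 10 was -0.36, against 0.03 over all genes above background. The bounded difference of Ccl3, at -0.53, had the sign of this median, and those of Xcl1 and Ccl5 had the other sign. The part of receptor signalling in these values was not tested.

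The interferon list, which bears on Cxcl10, had 9 genes analysed and 6 above background, with none 1.5-fold apart. Ifit1, Gbp2 and Irf7, all induced by interferon, differed by 0.43, 0.37 and 0.19. Isg15, Ifit3 and Irf1, the others above background, differed by 0.06, -0.05 and -0.07. Ifng, the gene for interferon gamma, and Cxcl9, a chemokine gene it induces, were below background on both arrays. The median bounded difference of the 6 was 0.12. Cytokine genes of the type 17 programme, in which Ccl20 is often expressed, were lower in MHC class II KO cells, with Il17f at -2.88 and Il17a at -1.57, and the receptor gene Il23r differed by -0.12. Ccl20 stayed below background on both.

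Markers of the sorted cells and of others checked the labels. All 10 genes analysed from the γδ T cell list were above background on both arrays. Among them Cd3e had log2 signals of 16.87 in MHC class II KO cells and 16.90 in WT cells, and Tcrg-V6 had 12.33 and 12.64 in the same order. Cd3e, Cd3g and Cd3d are shared with αβ T cells and do not tell the 2 kinds apart. H2-Ab1, a class II gene, was 2.01-fold lower in MHC class II KO cells but above background on both, H2-Eb1 was 1.96-fold lower and above background on both, and H2-Aa, above it in WT cells alone, is bounded at 1.17-fold lower or more. Of 9 markers of αβ thymocytes analysed, 8 were above background, 6 were at least 1.5-fold higher in MHC class II KO cells and 0 lower, and their summed signal was 32830 there and 13468 in WT cells. Of 9 markers of dendritic cells and macrophages, known sources of Ccl3, Ccl4 and Ccl17, Cd68 (0.91) and Lyz2 (at least 0.30) were above background, Csf1r, Adgre1, Itgam and Itgax were not, and the sum was 794 in MHC class II KO cells and 554 in WT cells. NK and innate lymphoid markers, from cells known to make Xcl1 and Ccl5, summed to 1892 in MHC class II KO cells and 1562 in WT cells, with 3 of 6 above background, led by Tyrobp (0.34) and Gzma (0.31), and with Ncr1 and Eomes on neither array. B cell markers summed to 42478 in MHC class II KO cells and 16729 in WT cells, with Ighm (1.41) and Cd79b (0.11) above background on both arrays, while Cd79a, Ms4a1 and Pax5 were not above background. These sums follow their brightest rows, Cd8b1 (1.38) for thymocytes and Ighm for B cells. Gzma was likewise the brightest row of the NK and innate lymphoid list, and Cd68 of the dendritic cell and macrophage list. Of 5 mesenchymal and endothelial markers, Pdgfrb and Pecam1 were above background, and the sums were 820 in MHC class II KO cells and 783 in WT cells. Xist differed by -0.56, and of the Y-linked genes Eif2s3y differed by 0.58, Uty by 0.62 and Kdm5d by 0.75, and the sex of the animals is not stated. The parts of these cells and of sex in the chemokine values were not tested.

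**Figure D4:**
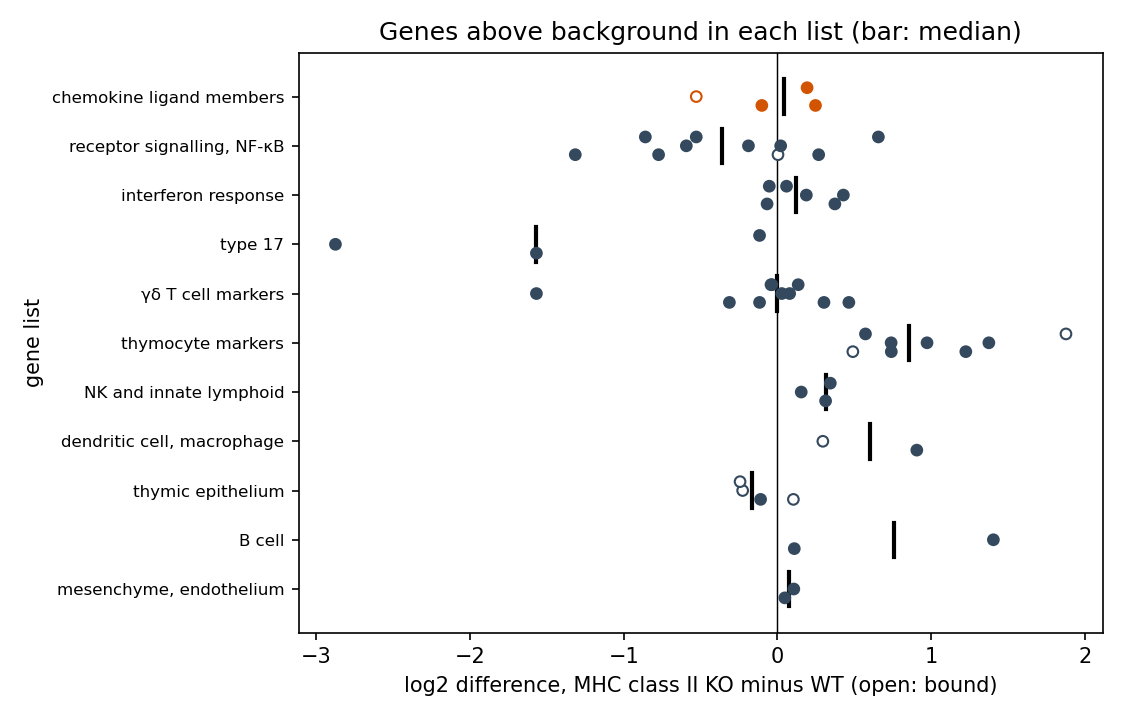
Log2 difference (MHC class II KO minus WT) of each gene above background on at least 1 array, by list; filled points are measured on both arrays, open points are bounds, and vertical bars are list medians. The chemokine ligands span -0.53 to 0.25, the thymocyte markers lie between 0.49 and 1.88, and the type 17 genes reach -2.88.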

How the data were processed

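RNA from sorted Vγ6 γδ T cells was hybridised to whole-transcript GeneChip arrays, 1 per genotype, per the labels' protocols. The deposited values were intensities on a linear scale, 1 for each transcript cluster, made with RMA and Affymetrix Expression Console 1.4.1 per the submitters' processing notes. They reached 487523 in MHC class II KO cells and 480711 in WT cells, past the 65535 that a scanner can read, so an undescribed rescaling could have widened or narrowed the folds. The log2 of each intensity was taken with pandas 2.3.3 and numpy 2.4.6, and the brightest row with a gene's symbol alone was used. Symbols came from the platform annotation, updated through RefSeq GRCm38.p6. Differences are log2 MHC class II KO minus log2 WT, and a signal under background was raised to it. Where a bound pointed the wrong way the difference was set to 0. Genes were counted at 1.5-fold, with no test, since 2 arrays of 1 each allow none, and their number limits the precision. Counting was tested on simulated data. Recovery of changed genes was checked there only for genes well above background, and not for signals as dim as that of Ccl3. Named genes were the 8 members, their receptors, other ligands above background, up to 3 genes of each other list with the largest bounded difference, and the 3 genes nearest to the most different member. Further genes, such as markers that were below background, the class II genes, Xist and the Y-linked genes, were named beside them. The members and lists were chosen with earlier results of these data known. Alternatives were 3 scalings, measured values, averaged rows, 3 other backgrounds, 2 other thresholds and no filter.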

Additional observations from a re-analysis of the deposited data

How the results depend on the processing

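Under centring on the median, quantile normalization and loess correction, Ccl3 and Ccl25 stayed lower and Ccl5 and Xcl1 higher in MHC class II KO cells. No difference of a member reached 1.5-fold under these scalings, that of Ccl3 being only a bound. Ccl3 depended on the treatment of dim signals. As measured, or with background at the 90th percentile of olfactory receptor rows or the median of all rows, its difference was -0.76 and 1 member was at least 1.5-fold lower, because its signal in MHC class II KO cells was then not raised. At a log2 difference of 0.32, a lower threshold, 1 member was lower too. With background at the 99th percentile 2 members, Ccl25 and Xcl1, remained above it, and Ccl3 and Ccl5 had no value. At least 1.5-fold lower were 459 of all genes as measured, 430 with the 90th percentile background and 484 with the median of all rows. The count was 222 with background at the 99th percentile and 678 with neither a filter nor signals raised to background, against 386 in the report. At 2-fold 107 genes were higher and 117 lower, and at the lower threshold 1993 were higher and 1297 lower. A change of sign with the scaling was seen for Cd3e, Egr1, Egr2, Maf and Pdgfrb among the genes of the lists. No paired analysis was possible because each genotype had 1 array, and for the same reason no array could be left out. Signal over background limits what can be said of Ccl1, Ccl3, Ccl4, Ccl5, Ccl20 and Cxcl10.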

Other observations

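Rows that named several gene symbols, a chemokine gene among them, were kept out of the gene counts. All 9 rows naming Ccl21 genes, whose products are ligands of CCR7 made by thymic stroma, had lower signals in MHC class II KO cells, with measured log2 differences of -0.49 to -0.36. These rows held 4 distinct pairs of values, so they are not 9 separate measurements. The log2 signals ran over 4.60 to 5.62 in MHC class II KO cells and 5.09 to 5.99 in WT cells, and 1 of the 9 rows was above background, in WT cells alone. Of 5 rows naming Ccl27 genes, 3 were above background on both arrays, and the differences of all 5 lay between -0.11 and 0.18. None of 5 rows naming Ccl19 was above background on either array.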
